A study of Schizosaccharomyces pombe with 4 samples.

Results

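The genes described here build and remodel the glucan wall of the fission yeast Schizosaccharomyces pombe. They are 10 of the 5113 protein-coding genes in the annotation, chosen by name for their roles in the wall. The choice was made with earlier results of these data known, so shares of all genes given beside them are description only. A group of 6 encodes small secreted or GPI-anchored wall proteins (gas1, gas2, psu1, asl1, exg1 and knh3). The other 4 encode the large glucan synthases of the plasma membrane (bgs1, bgs3, bgs4 and ags1). RNA polymerase II carrying a phosphate on serine 5 of its C-terminal domain (Ser5P) was immunoprecipitated from cells with the abp1 gene deleted (abp1Δ, ABP1d in the labels) and from wild-type cells. Abp1 is a DNA-binding relative of human CENP-B, a centromere protein. Both strains were in exponential growth in YES, a rich medium, and were fixed with 1% formaldehyde for 15 min. Each genotype has an input, not used here, and a ChIP sample, which carries 1 list of intervals. Neither ChIP was repeated in these 4 samples, so no difference was tested, and all values describe the 2 lists.

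The fission yeast wall is made mostly of beta-glucans and alpha-glucan, with galactomannan on the outside. Synthases in the plasma membrane spin out the glucan chains. Enzymes secreted into the wall or held there by a GPI anchor then lengthen, branch, cross-link or trim those chains as the cell grows at its tips and lays down a septum. Ser5P is the form of polymerase II found from initiation into early elongation.

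A deposited interval is a stretch of bases with a whole-number score. Every score was 200 or higher, the unit of the score is not stated, and the read depth is unknown. The abp1Δ list held 2851 intervals over 249934 bp, and the wild-type list 3242 over 227413 bp. Polymerase below the lowest score leaves no interval, so a gene listed without one is not shown to lack it. Covered length and score both depend on depth and scaling, which may differ between the lists, so the lists may differ where polymerase does not. The deleted gene, SPBC1105.04c, had no interval in either list, so it does not check the genotype labels.

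The stretches of coding sequence below show covered and uncovered bases in these genes, and are referred to again beside the values. Each is written 5′ to 3′ on the gene's own strand, from RefSeq assembly ASM294v3, with edges as deposited, which may be off by 1 bp or more. The first set gives the first 60 coding bases of 3 genes, beginning with the start codon. Capitals mark bases under an interval in both lists, so psu1 and gas1 are in capitals throughout and asl1 has none.
psu1, chrI:1823130-1823189, minus strand: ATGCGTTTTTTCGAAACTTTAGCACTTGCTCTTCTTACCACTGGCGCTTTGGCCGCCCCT
gas1, chrI:4880394-4880453, minus strand: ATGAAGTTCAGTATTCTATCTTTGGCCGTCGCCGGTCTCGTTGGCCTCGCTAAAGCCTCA
asl1, chrI:193829-193888, minus strand: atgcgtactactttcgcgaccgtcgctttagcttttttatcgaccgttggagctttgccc

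The second set shows coverage close to the lowest score. In the gas2 stretch of 180 bases, capitals mark the 88 bases under 9 wild-type intervals, while all 180 bases lie inside 1 unbroken abp1Δ interval. The bgs4 stretches hold the highest wild-type interval and the highest abp1Δ interval of that gene, with capitals for covered bases of the list named, and neither stretch has a covered base in the other list.
gas2, wild type, chrII:2554519-2554698, plus strand: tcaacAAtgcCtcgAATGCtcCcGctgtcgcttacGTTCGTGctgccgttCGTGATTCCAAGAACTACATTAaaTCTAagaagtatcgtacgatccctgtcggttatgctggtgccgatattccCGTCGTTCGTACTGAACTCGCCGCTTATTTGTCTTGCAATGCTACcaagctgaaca
bgs4, abp1Δ, chrIII:2250590-2250681, minus strand: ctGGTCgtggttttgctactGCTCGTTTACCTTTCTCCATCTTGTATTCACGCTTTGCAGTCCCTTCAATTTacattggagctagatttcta
bgs4, wild type, chrIII:2254983-2255042, minus strand: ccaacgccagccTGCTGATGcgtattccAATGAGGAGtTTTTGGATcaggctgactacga

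Of the 6 small wall protein genes, 5 carried long Ser5P intervals in both lists, and gas2 carried one in abp1Δ alone. All gas2 coverage lies in a stretch shared with another gene, as described below. The synthases had almost no covered bases. All 6 small genes had an interval in both lists, against 1 of the 4 synthases, bgs4. The covered share of the gene body, from the annotated start to the annotated end, averaged 82.4% in abp1Δ and 70.6% in wild type over the 6 small genes. It averaged 0.417% in abp1Δ and 0.0994% in wild type over the 4 synthases. Covered lengths summed to 9767 bp in abp1Δ and 8580 bp in wild type for the small genes, and to 130 bp in abp1Δ and 31 bp in wild type for the synthases. In all, 7 of 10 genes had an interval in each list, where 7.12% of protein-coding genes did in abp1Δ and 7.18% in wild type. At least 50% of the body was covered in all 6 small genes in abp1Δ and in 5 of them, all but gas2, in wild type. That share of the body was reached by 2.89% of protein-coding genes in each list.

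**Figure D1:**
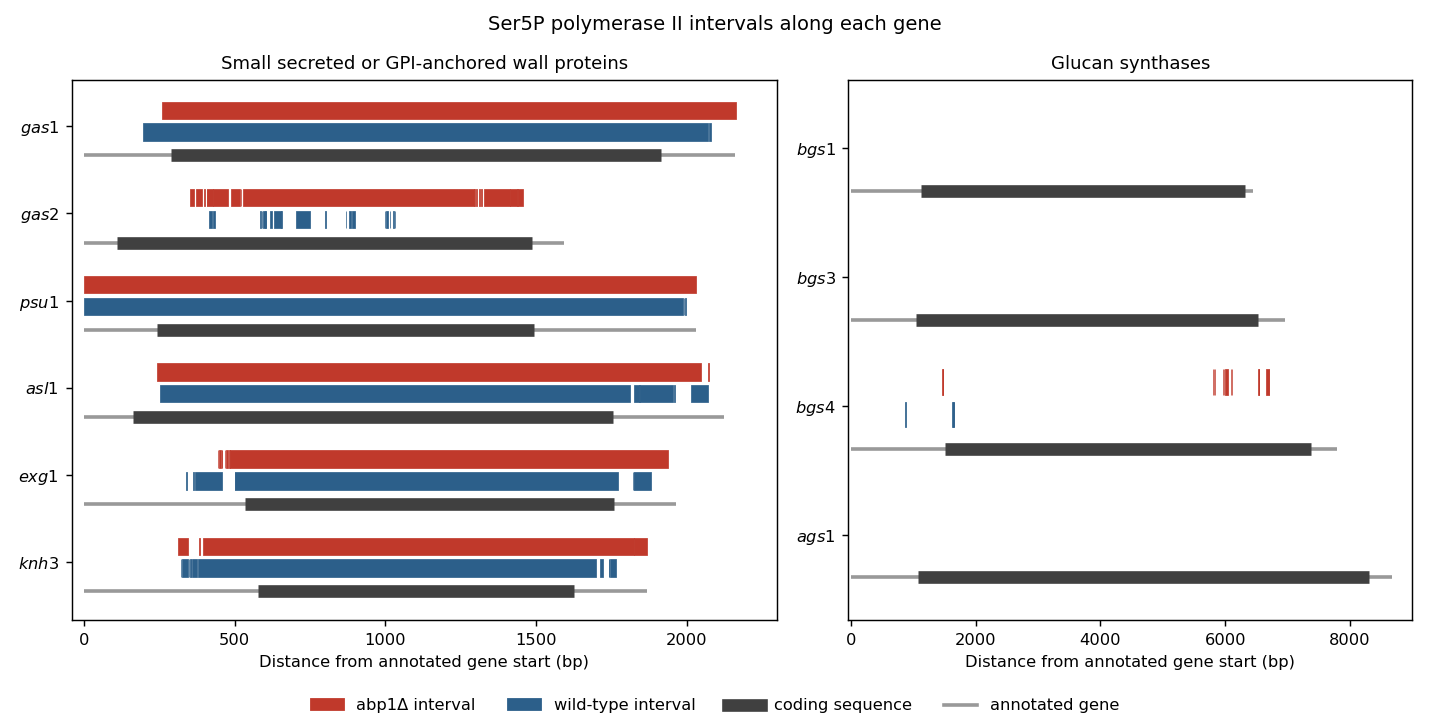
Deposited intervals along the 10 genes, with distance from the annotated gene start in bp on the horizontal axis, abp1Δ bars above wild-type bars and the coding sequence as a thick line below them. Apart from gas2, the small genes are filled from near the start codon to past the stop codon. In gas2 the bars of both lists stay within the coding sequence, and in wild type they are short pieces. Among the synthases bgs4 alone has bars.

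**Figure D2:**
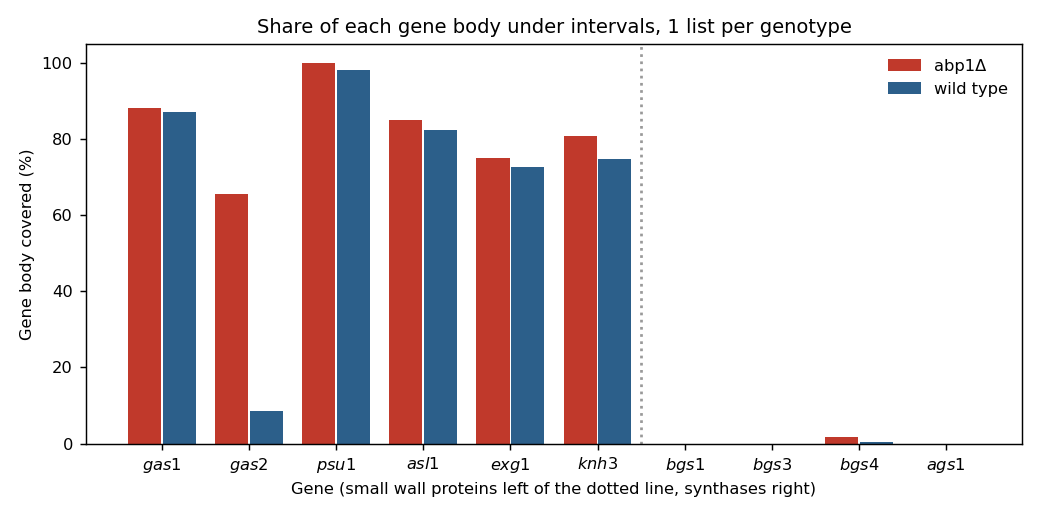
Share of each gene body under intervals, in percent, with abp1Δ left of wild type for each gene and 1 list behind each bar. The bars of gas2 stand at 65.5% in abp1Δ and 8.66% in wild type, and those of the synthases at 1.67% or less.

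The SUN family gene psu1, which the annotation names a beta-glucosidase (SPAC1002.13c, chromosome I, 1821401 to 1823430, minus strand), was covered most. Its 2030 bp were covered in full in abp1Δ by 1 interval with a score of 1871, and 1991 bp, or 98.1%, were covered in wild type, where the highest score was 1066. Its longest interval was the one among the 10 genes that began before the annotated gene start, by 25 bp in abp1Δ and 22 bp in wild type. At the other end it ran 57 bp past the gene in abp1Δ, and in wild type it stopped inside the gene, 492 bp past the stop codon. By highest score psu1 stood 11th of the 364 genes with an interval in abp1Δ and 18th of 367 in wild type. Ranks in lists of different length describe each list and show no change between them. Neither protein-coding neighbour of psu1 had an interval in either list.

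The beta-glucanosyltransferases Gas1 and Gas2 lengthen beta-glucan chains in the wall and are GPI-anchored. In gas1 (SPAC19B12.02c, chromosome I, 4878579 to 4880740, minus strand) 1905 of 2162 bp, or 88.1%, were covered in abp1Δ and 1881 bp, or 87.0%, in wild type. The highest scores of gas1 were 853 in abp1Δ and 855 in wild type, at rank 50 in abp1Δ and rank 29 in wild type. The gas1 coding sequence of 1629 bp was covered in full in both lists, from the first base of the start codon printed above. Its long interval began 30 bp before the start codon in abp1Δ and 91 bp before it in wild type. In abp1Δ it ran 23 bp past the gene end, which itself lies 246 bp past the stop codon. In wild type it ended 155 bp past the stop codon.

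The gene gas2 (SPBC29A10.08, chromosome II, 2553939 to 2555531, plus strand) differed most between the lists. It had 1044 of 1593 bp covered, or 65.5%, in abp1Δ and 138 bp, or 8.66%, in wild type, a difference of 56.87 points. No other gene of the 10 differed by 10 points or more. Among the 412 genes with an interval in either list, 22.3% were higher by at least 10 points in abp1Δ and 18.0% were lower, and gas2 stood 8th by size of rise. At 1 of the 7 genes with an interval, the wall genes hold no larger a share than the background. In abp1Δ a single interval of 767 bp with a score of 332 held most of the coverage, among 17 intervals in all. In wild type 20 intervals had a median width of 3.5 bp, the longest was 45 bp, the highest score was 226, and 15 of the 20 scores were under 210. Of the 138 wild-type bases, 137 also lay under an abp1Δ interval. With intervals up to 100 bp apart joined, gas2 was covered over 69.3% in abp1Δ and 29.3% in wild type. The wild-type pieces as deposited fell inside the abp1Δ run, as the gas2 sequence above shows for 9 of them, and all lay close to the lowest deposited score. Counted from the start codon, coverage began farther in than in the other small genes, 243 bp past the start codon in abp1Δ and 307 bp past it in wild type.

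Every covered base of gas2 also lies in the annotated gene tri1, a CAF1 family ribonuclease gene on the opposite strand (2554177 to 2556947). The 1355 bp that the 2 genes share hold no coding sequence of tri1. Outside the shared stretch tri1 had 0 covered bp in both lists. ChIP reads carry no strand of transcription, so the polymerase in this stretch cannot be assigned to either gene. Leaving out bases shared with another gene leaves gas2 without an interval and removes the one difference of 10 points or more.

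**Figure D3:**
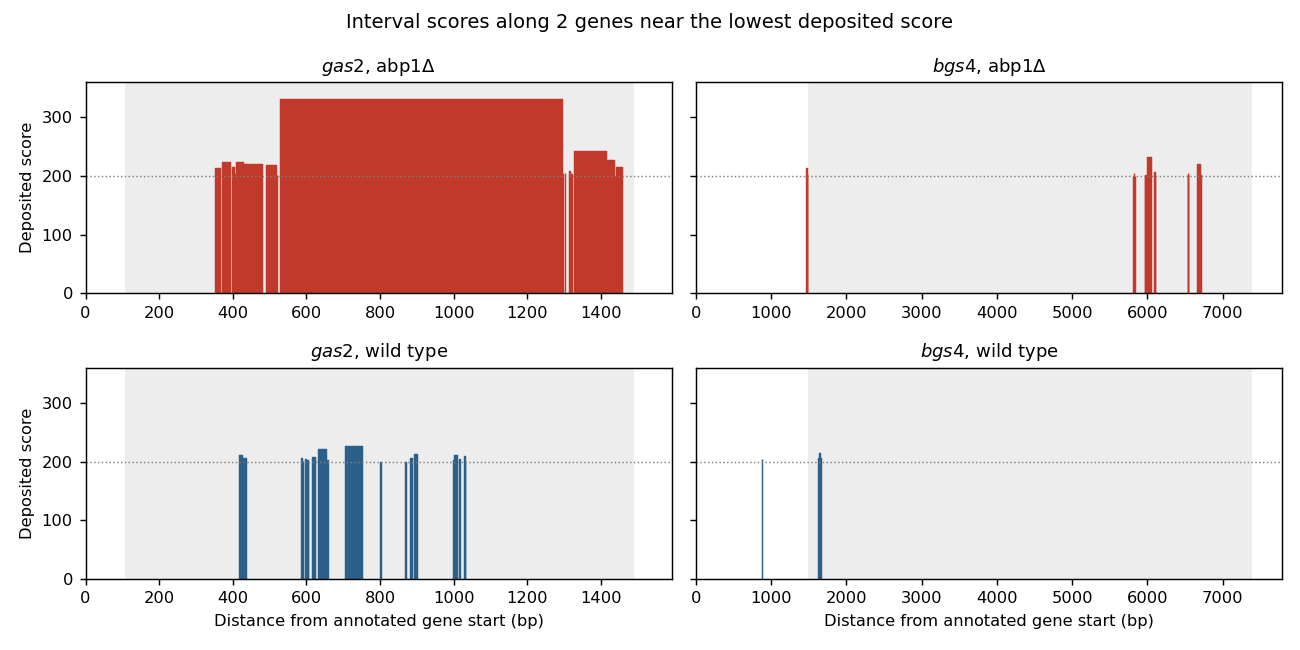
Score of each interval along gas2 and bgs4, with distance from the annotated gene start in bp on the horizontal axis, abp1Δ above wild type, the coding sequence shaded and the lowest deposited score of 200 dotted. In gas2 the abp1Δ run reaches 332 where wild type has pieces up to 226, and in bgs4 the highest scores are 232 in abp1Δ and 215 in wild type, at separate places.

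The gene asl1, annotated as an O-glucosyl hydrolase (SPAC13G6.10c, chromosome I, 191928 to 194050, minus strand), had 1806 of 2123 bp covered in abp1Δ, or 85.1%, and 1749 bp, or 82.4%, in wild type. Its highest scores were 723 in abp1Δ and 607 in wild type. Its coverage began inside the coding sequence, 81 bp past the start codon in abp1Δ and 89 bp past it in wild type, so the first coding bases printed above had none. At the other end its long interval reached 292 bp past the stop codon in abp1Δ and 57 bp in wild type. Short wild-type intervals filled much of the remainder, to 316 bp past the stop codon.

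The gene exg1, for a secreted glucosidase that trims beta-glucan in the wall (SPBC1105.05, chromosome II, 3514604 to 3516567, plus strand), had 1474 of 1964 bp covered in abp1Δ, or 75.1%, and 1427 bp, or 72.7%, in wild type. Its highest scores were 660 in abp1Δ and 426 in wild type, at rank 75 in abp1Δ and rank 139 in wild type. It is the neighbour of the deleted gene, and the 2 genes are read away from each other across 2233 bp. No base of that stretch was covered in either list. In wild type breaks of up to 49 bp split off stretches of 89 bp ahead of the long interval and 56 bp behind it. The share of exg1 was 2.39 points higher in abp1Δ as deposited, but with intervals up to 100 bp apart joined the difference, abp1Δ minus wild type, was -2.60 points.

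The gene knh3 (SPCC553.10, chromosome III, 283181 to 285047, minus strand) belongs by name to a family whose budding yeast members Kre9 and Knh1 are needed for a minor branched beta-glucan. It had 1508 of 1867 bp covered in abp1Δ, or 80.8%, and 1394 bp, or 74.7%, in wild type, a difference of 6.11 points. Its highest scores were 1050 in abp1Δ and 638 in wild type, at rank 30 in abp1Δ and rank 55 in wild type. Its long interval began 183 bp before the start codon in abp1Δ and 199 bp before it in wild type. It ended 197 bp past the stop codon in abp1Δ and 71 bp past it in wild type. In abp1Δ 1 further interval ran on into the convergent gene toa2, for a TFIIA subunit, which had 289 covered bp there and 0 bp in wild type, none of them in its coding sequence. At asl1 the convergent gene tsr402 had 49 covered bp in abp1Δ and 0 bp in wild type. These lay outside the stretch it shares with asl1, so no asl1 interval ran into it.

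Set side by side, gas2 made up 906 of the 1187 bp by which the 6 small genes had more coverage in abp1Δ, all of it in its coding sequence. The other 5 had 281 bp more in abp1Δ, mainly outside the coding sequence. The coding sequences of gas1, psu1, exg1 and knh3 were covered in full in both lists, and that of asl1 over 1512 bp, or 94.9%, in abp1Δ and 1504 bp, or 94.4%, in wild type. Over the whole body, all 7 genes with an interval had more covered bp in abp1Δ, by a median of 57 bp, where 54.4% of the 412 genes with an interval in either list did, with a median of 10 bp. Counted in coding sequence alone, 3 genes had more, namely gas2, asl1 and bgs4. The longest interval ended farther downstream in abp1Δ in all 5 small genes that had one of at least 300 bp in both lists, where 55.0% of 131 such genes did. Edges were taken within the gene body. The near edge of the longest interval was closer to the gene start in abp1Δ in asl1 and exg1, and farther in gas1 and knh3. By the first covered base of any interval, exg1 and knh3 went the other way. In exg1 it lay at base 445 of the gene in abp1Δ and 338 in wild type. In knh3 it lay at base 311 in abp1Δ and 322 in wild type. In psu1 the longest interval began before the gene in both lists, so its near edge was cut at the annotated start and counted as equal. Among the 131 genes 52.7% had the closer edge of the longest interval in abp1Δ. Chromatin was sheared to 250 to 400 bp, so distances of this size are below the length of a fragment. The 2 edge measures of the longest interval were chosen after the data were seen.

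**Figure D4:**
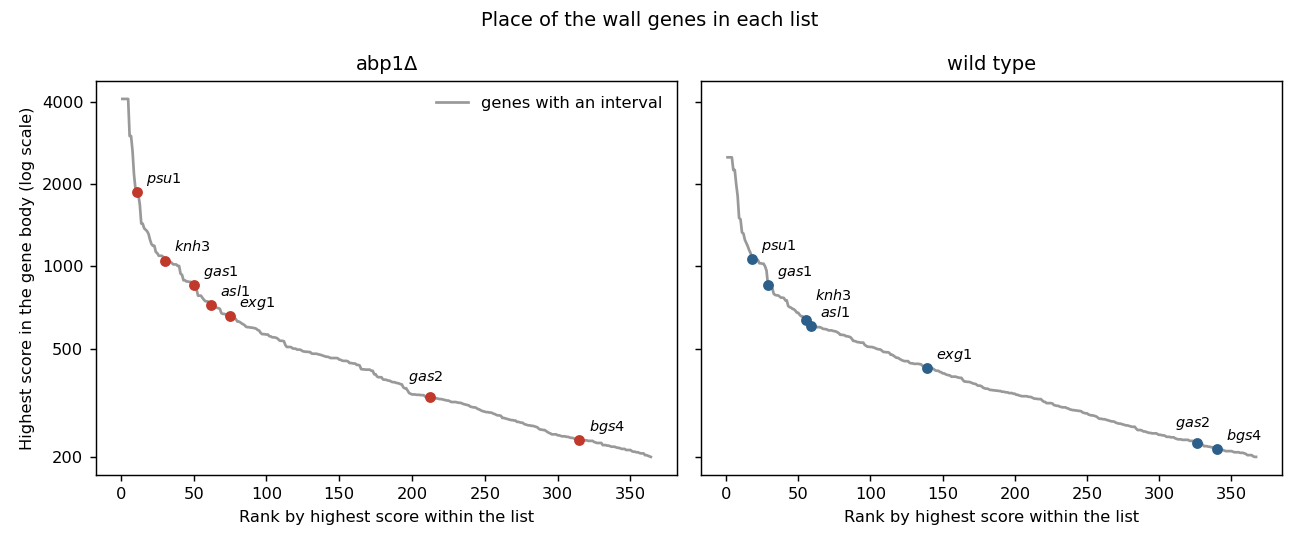
Highest score in the gene body (log scale) against its rank among all genes with an interval, abp1Δ left and wild type right, with the 7 wall genes that have an interval as points. The points run from psu1, at rank 11 in abp1Δ and 18 in wild type, to bgs4, at rank 315 in abp1Δ and 340 in wild type.

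The highest scores of the 7 genes ran from 232 to 1871 in abp1Δ, where the list reached 4092, and from 215 to 1066 in wild type, where it reached 2503. The median highest score of all genes with an interval was 384 in abp1Δ and 353 in wild type. In both lists psu1, gas1, asl1, exg1 and knh3 stood above that median, and gas2 and bgs4 below it. Apart from psu1 at the top, the order within the lists differed, with knh3 second in abp1Δ and gas1 second in wild type.

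Of the synthases, bgs4 alone had intervals. Bgs4 makes the branched beta-glucan of the wall and the secondary septum. Its gene (SPCC1840.02c, chromosome III, 2248859 to 2256652, minus strand) had 130 of 7794 bp covered in abp1Δ, in 16 intervals, and 31 bp in wild type, in 4. The highest scores were 232 in abp1Δ and 215 in wild type, and 13 of the 16 abp1Δ scores and 3 of the 4 wild-type scores were under 210. The lists shared 0 covered bp in this gene. In abp1Δ 115 of the covered bp lay in the coding sequence, toward its end, from 4297 bp past the start codon on, and 15 bp lay just ahead of the start codon. In wild type 25 bp lay within the coding sequence, from 116 bp past the start codon on, and 6 bp lay 632 bp ahead of it. The bgs4 sequences printed above come from these places, more than 4 kb apart. When the abp1Δ list was reduced to the covered length of the wild-type list, bgs4 had no interval left there.

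No interval met bgs1 (SPBC19G7.05c, chromosome II, 2350922 to 2357364), whose product makes the linear beta-glucan of the primary septum. None met bgs3 (SPAC19B12.03, chromosome I, 4882954 to 4889915), for another beta-glucan synthase, or ags1 (SPCC1281.01, chromosome III, 1373097 to 1381763), for the alpha-glucan synthase. The nearest interval to bgs1 was 1855 bp away in abp1Δ and 1609 bp in wild type. The nearest to bgs3 was 789 bp away in abp1Δ and 925 bp in wild type. The nearest to ags1 was 10819 bp away in abp1Δ and 10858 bp in wild type. The gene bgs3 is the direct neighbour of gas1, and the 2 genes are read away from each other across 2213 bp. That stretch had 0 covered bp in both lists, so a gene covered over 88.1% in abp1Δ and 87.0% in wild type lies beside one without an interval.

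Gene length differs between the groups, from 1593 to 2162 bp for the small genes and from 6443 to 8667 bp for the synthases. Among the 145 protein-coding genes of 5 kb or more, 6.21% had an interval in abp1Δ and 6.90% in wild type, and for none of them was 50% of the body covered in either list. Among the 4269 genes under 3 kb, 7.54% had an interval in abp1Δ and 7.64% in wild type, and at least 50% of the body was covered in 3.28% in abp1Δ and 3.37% in wild type. Most genes in both length classes had no interval, so the lack of one in a synthase is not particular to long genes. The part of gene length in the difference between the groups was not tested. Counted over the first 2 kb alone, bgs4 had 15 bp in abp1Δ and 31 bp in wild type, and the other 3 synthases 0 bp. No gene of 5 kb or more had 50% of its first 2 kb covered in either list.

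**Figure D5:**
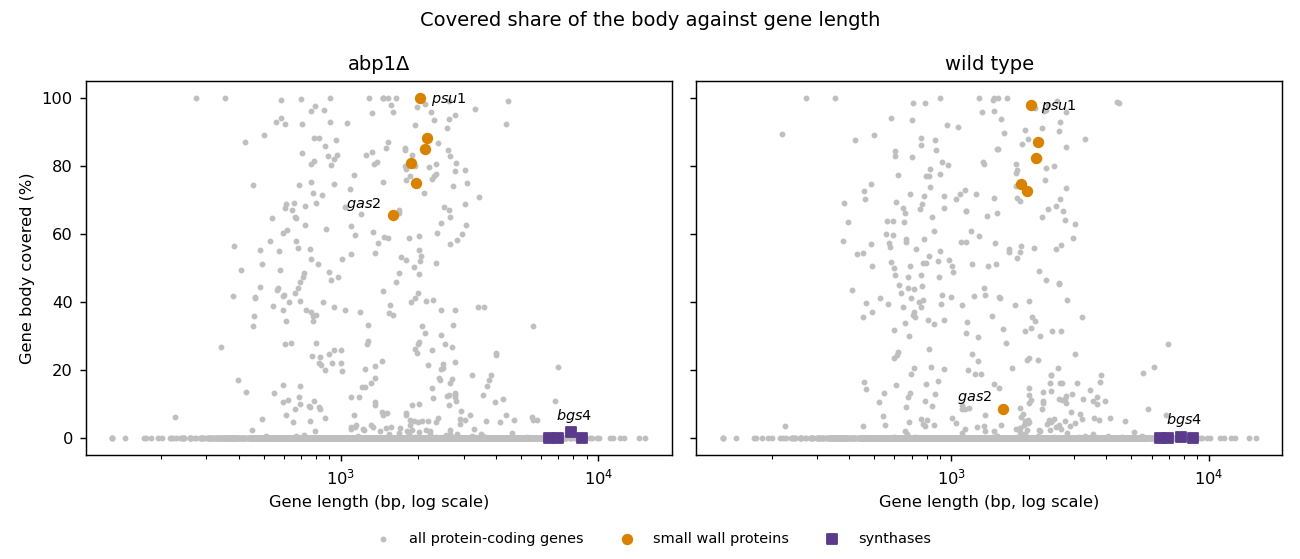
Share of the gene body covered, in percent, against gene length (log scale) for all 5113 protein-coding genes, abp1Δ left and wild type right, with the 6 small wall protein genes as circles and the 4 synthases as squares. The small genes lie at 65.5% or above in abp1Δ and, apart from gas2, at 72.7% or above in wild type, while genes of 5 kb or more stay below 50%.

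The groups also differed in features read from the annotation and the sequence. All 10 genes have their coding sequence in 1 part, with no intron, as have 53.3% of protein-coding genes. The synthases have long annotated stretches ahead of the start codon, from 1044 bp in bgs3 to 1506 bp in bgs4, against 108 bp in gas2 to 576 bp in knh3 among the small genes. The median over all protein-coding genes is 80 bp, and 1.35% of all genes, or 8.28% of those of 5 kb or more, have 1000 bp or more there. GC content was taken from the first to the last coding base, with any introns between them. It was 41.8% in exg1 to 49.5% in psu1 among the small genes and 38.3% in bgs3 to 40.9% in ags1 among the synthases. The median was 38.8% over all genes. Genes covered over at least 50% of the body in abp1Δ had a median of 46.6%, and those in wild type 46.4%. Introns are counted in the medians, whereas the 10 genes have none, so the values are not fully alike. The part of GC content or introns in the difference between the groups was not tested. Each 50-base word in the 10 genes occurs once in the genome, so no member shares such sequence with another gene.

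Other genes of wall synthesis and remodelling were taken from a list of 29, of which 26 were matched in the annotation. An interval in the body was found in 4 of the 26 in abp1Δ (15.4%) and in 5 in wild type (19.2%), beside the 7.12% and 7.18% of all genes given above. The GPI-anchored wall protein gene ecm33 had 1925 covered bp and a highest score of 1683 in abp1Δ, and 1736 bp and 1217 in wild type, close to psu1. The beta-glucanosyltransferase gene gas5 had 1779 bp in abp1Δ and 1747 bp in wild type. The surface protein gene knh2, listed under its older symbol pwp1, had 1080 bp in abp1Δ and 1078 bp in wild type. The remaining genes with an interval had it in 1 list alone, with few bases. The glucosidase gene bgl2 had 18 bp in abp1Δ. The septum glucanase genes eng1 and agn1, whose products part the daughter cells, had 197 and 21 bp in wild type. None of these 3 scored above 248.

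Within families the members differed widely. Of the 4 gas genes measured, gas1 and gas5 were covered over 75.8% or more in both lists, gas2 as given above, and gas4 had no interval. Beside knh3 and knh2, each at 74.7% or more in both lists, knh1, which was added after the data were seen, had no covered base in abp1Δ and 1 bp in wild type. The SUN family gene psu2 had no interval, unlike psu1. The 5 further glucan synthase genes, bgs2 and mok11 to mok14, some of which serve the spore wall, had none in either list. Nor had the 2 chitin synthase genes, chs1 and chs2. The list was chosen by symbol for role in the wall, with earlier results of these data known, so its shares do not measure enrichment. With 1 list per genotype no difference between these groups was tested.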

How the data were processed

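Ser5P polymerase II ChIP was compared between an abp1 deletion strain and wild type, 1 interval list each, grouped by source names. Chromatin was quenched with 125 mM glycine after fixation, per the labels' protocols. The authors' deposited lists give chromosome, start, end and a score per interval, whose unit and scaling are not stated. Bowtie 0.12.5 is named in the submitters' processing notes. No peak caller, build or use of inputs is named there or in the labels.

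Intervals were read as 0-based and half-open and set against RefSeq assembly ASM294v3. Moved by 500 bp either way, the lists had at most 79.3% of abp1Δ and 77.4% of wild-type covered bases in protein-coding genes, against 90.4% of abp1Δ and 89.6% of wild-type bases as deposited. Moves of 100 bp left 88.6% or more, so this check does not fix the coordinates to single bases. In the near-identical genes eft201 (chromosome I) and eft202 (chromosome III), 12 of 18 wild-type intervals of eft201 had a counterpart with the same score within 1 bp, and 0 of 1 in abp1Δ. In the near-identical genes tef101, tef102 and tef103, the interval of tef102 ended earlier in wild type than those of the other 2, and all 3 matched in abp1Δ.

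Covered bases, an overlap of at least 1 bp and the highest score were computed per gene (Python 3.11.15, NumPy 2.4.6), with the coverage code tested on simulated intervals. A difference of 10 points in the covered share was counted. All 10 members are named, and listed pathway genes where they have an interval. Members and lists were chosen with earlier results of these data known. Bases are not independent counts, so no intervals are given. The listed symbols crf1, crf2 and sup11 were not matched. Some genes of the pathway list are counted but not reported by name here.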

Additional observations from a re-analysis of the deposited data

How the results depend on the processing

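Under 8 other ways of counting, and 2 more added after the data were seen, 41 of 59 recomputed summary values met a fixed rule of closeness. Counts had to stay within a set ratio of those reported, and lengths and shares within a 95% binomial confidence interval. That rule treats bases as independent, which they are not, so 41 of 59 is a rough tally and no measure of robustness. The number of genes with an interval stayed at 6 or 7 of 10 in each list. With coding sequence only, covered bp summed to 7828 in abp1Δ and 6824 in wild type, the small genes averaged 95.1% in abp1Δ and 84.1% in wild type, and 3 genes had more covered bp in abp1Δ in place of 7. The upper 50% of each list by score gave the synthases 0.337% in abp1Δ and 0.0289% in wild type. Joining intervals up to 100 bp apart gave sums of 10219 bp in abp1Δ and 9193 bp in wild type, means for the small genes of 84.2% in abp1Δ and 76.1% in wild type, and 0.802% for the synthases in abp1Δ. It gave gas2 69.3% in abp1Δ and 29.3% in wild type, a difference of 40.05 points. With the abp1Δ list reduced from its highest score down to the covered length of wild type (added), its sum was 9432 bp, the mean of the small genes 79.0%, that of the synthases 0.0%, and gas2 differed by 39.5 points. Leaving out bases shared with another gene (added for shares) gave the small genes 71.6% in abp1Δ and 69.5% in wild type and 0 differences of 10 points or more. These means count gas2, all of whose covered bases are shared, at 0.0% in both lists. The other small genes stayed at 75.05% or more in abp1Δ and 72.66% or more in wild type. The cause of these moves was not tested. No paired analysis was possible because each genotype has 1 list. Depth is unknown, so no limit could be set for genes without an interval.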
